A study of Homo sapiens with 4 samples.

Results

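A549 is an established human lung adenocarcinoma line, described in the series as NRF2-activated. The integrin and laminin genes were examined in it after knockdown of CEBPB, a C/EBP family transcription factor. The members were the rows whose gene symbol names an integrin alpha or beta subunit or a laminin alpha, beta or gamma chain. They numbered 39 of 57820 rows. Described here are 38 of them, 27 for integrins and 11 for laminins, with 37 symbols because ITGB3 has 2 gene identifiers, and all counts of members are over these 38. Cells of both groups were transfected with siRNA. The control group had 2 libraries of cells given control siRNA, and the knockdown group had 1 library of cells given CEBPB siRNA-1 and 1 of cells given CEBPB siRNA-2. Fresh medium was given 24 h after transfection and the cells were collected another 24 h later. Levels are in FPKM, fragments scaled by transcript length and library size, which allows levels of different genes to be compared. Separate cultures are not stated for the control pair, so p-values reflect just the variation among these libraries, possibly technical.

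Integrins are adhesion receptors made of 1 alpha and 1 beta subunit that link the extracellular matrix to the actin cytoskeleton or to intermediate filaments. Laminins are basement membrane proteins, each a trimer of an alpha, a beta and a gamma chain, and the chain combination decides which integrins bind it. In lung epithelium the basement membrane holds laminins with the LAMA5 and LAMA3 chains, and the epithelial cells bind them through the ITGA3-ITGB1 and ITGA6-ITGB4 receptors.

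The receptor subunits ITGA3, ITGAV, ITGA5 and ITGB6, the leukocyte-type subunit ITGAX and the laminin gamma 1 chain LAMC1 were called higher after CEBPB knockdown in the authors' deposited table. These were 6 of the 30 members with an adjusted p there (20.0%), where 2.71% of all genes were called higher. None of the 30 was called lower, against 1.42% of all genes. Members with the lowest mean counts have no adjusted p there. ITGAX and ITGB6, at no more than 0.138 FPKM in control cells, owe their mean counts mainly to the siRNA libraries. Their places in the share called higher may therefore partly reflect that cutoff. Counts per library were not used here, so the FPKM values were also tested with limma on log2(FPKM + 1), over genes averaging at least 1 FPKM. Of the 38 members, 18 entered that test (12 integrins and 6 laminin chains). None of the 18 passed at an adjusted p of 0.05 in either direction, where 0.064% of all genes were called higher and 0.171% lower. Before adjustment, 7 of the 18 had a p below 0.05, against 12.2% of all genes. ITGB6 and ITGAM entered only through the siRNA-1 library, so their places in counts of members higher with siRNA-1 partly reflect the filter. The targeted transcript CEBPB measured 78.7 and 80.9 FPKM in control cells, 12.9 under siRNA-1 and 10.97 under siRNA-2.

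The promoters of the called members show what lies at their starts, and 4 of the 6 were in the RefSeq promoter table (build GRCh38.p14), namely ITGA5, ITGAV, ITGB6 and LAMC1. Each window runs from 250 bases before the annotated start to 50 after it and is given 5′ to 3′ on the gene's strand. They are ITGA5 at chr12:54419217-54419516 (minus strand), ITGAV at chr2:186589806-186590105 (plus strand, the first of 2 listed starts), ITGB6 at chr2:160200223-160200522 (minus strand) and LAMC1 at chr1:183023170-183023469 (plus strand). Capitals mark matches to TTNNGNAA, a loose form of the C/EBP binding site, searched on both strands. The full palindrome TTGCGCAA is 1 of the sequences it matches.
ITGA5: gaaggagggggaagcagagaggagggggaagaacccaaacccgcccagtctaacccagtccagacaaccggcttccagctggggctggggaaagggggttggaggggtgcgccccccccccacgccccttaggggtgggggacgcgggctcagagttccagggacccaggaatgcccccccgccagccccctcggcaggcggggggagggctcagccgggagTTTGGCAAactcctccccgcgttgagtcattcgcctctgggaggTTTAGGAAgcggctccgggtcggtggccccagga
ITGAV: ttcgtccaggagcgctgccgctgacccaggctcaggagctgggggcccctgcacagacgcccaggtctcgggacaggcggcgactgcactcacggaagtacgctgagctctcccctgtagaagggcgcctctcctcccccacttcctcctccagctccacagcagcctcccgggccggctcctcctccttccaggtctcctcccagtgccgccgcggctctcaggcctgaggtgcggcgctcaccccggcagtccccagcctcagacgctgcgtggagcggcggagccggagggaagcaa
ITGB6: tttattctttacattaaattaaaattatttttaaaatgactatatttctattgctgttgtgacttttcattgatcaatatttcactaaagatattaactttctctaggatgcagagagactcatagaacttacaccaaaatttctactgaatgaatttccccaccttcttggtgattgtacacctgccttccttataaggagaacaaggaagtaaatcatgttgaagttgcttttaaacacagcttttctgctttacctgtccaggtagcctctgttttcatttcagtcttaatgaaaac
LAMC1: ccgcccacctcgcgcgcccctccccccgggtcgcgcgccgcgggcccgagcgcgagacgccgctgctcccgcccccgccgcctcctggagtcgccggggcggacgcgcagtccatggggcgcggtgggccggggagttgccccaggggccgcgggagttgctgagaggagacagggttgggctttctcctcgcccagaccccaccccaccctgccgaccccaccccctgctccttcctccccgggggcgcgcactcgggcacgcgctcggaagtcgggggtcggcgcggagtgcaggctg
ITGA5 held 2 matches to the loose form, starting at position -28 and at position 17 counted from the start. The other 3 windows held none. Over the 33 windows of the 26 member symbols in the table, 5 held the loose form and 0 held the palindrome, where 36.8% and 0.151% of all 35116 windows of that length did. The windows differed in base composition, with 31.7% G and C in ITGB6 against 69.3% in ITGA5, 70.7% in ITGAV and 79.0% in LAMC1. A match is a description of letters, not a binding site, and a missing match says nothing about C/EBP factors outside the window.

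**Figure D1:**
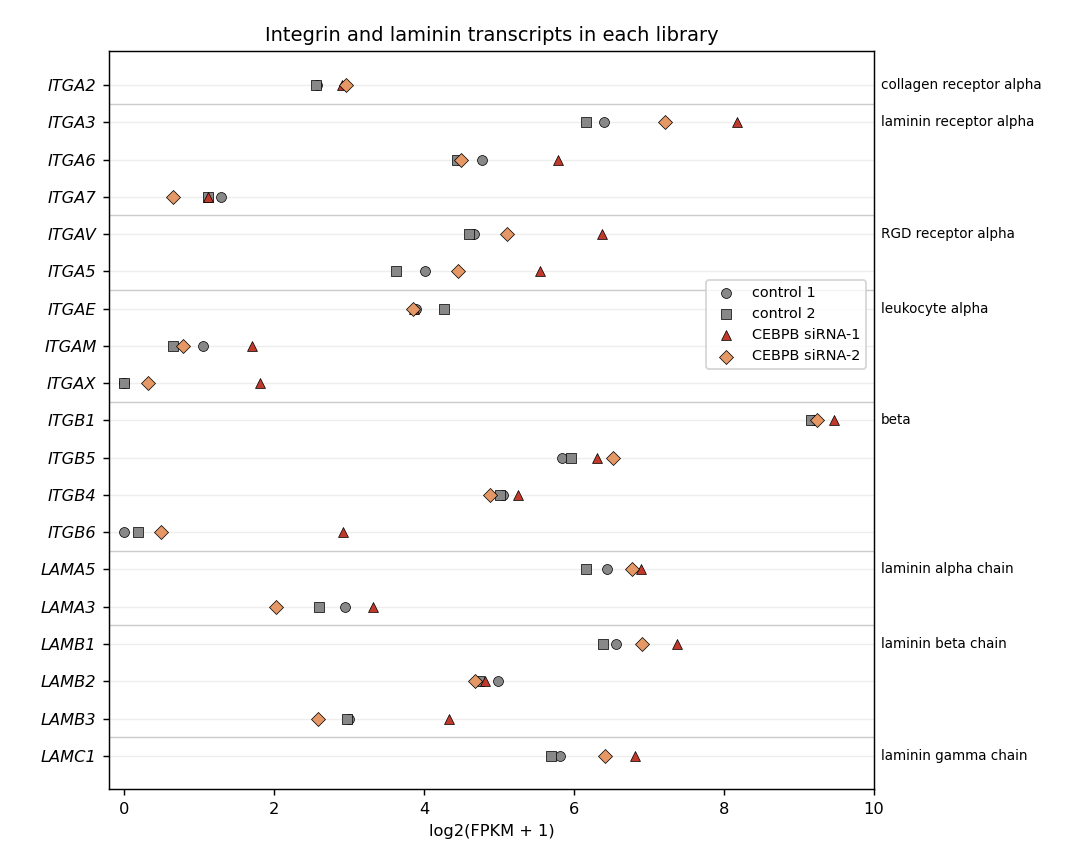
Level of each member that averaged at least 1 FPKM, and of ITGAX, as log2(FPKM + 1) on the horizontal axis, with 1 point per library (grey circle and square for the controls, triangle for siRNA-1, diamond for siRNA-2). ITGB1 lies highest in every library, and ITGA3 has both siRNA libraries (288 and 147 FPKM) above both controls (83.9 and 70.5 FPKM).

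Of the laminin chains, LAMC1 (ENSG00000135862.5), the gamma chain of most basement membrane laminins, measured 55.1 and 50.9 FPKM in control cells, 112 under siRNA-1 and 84.6 under siRNA-2. The groups did not overlap, and the siRNA mean was 1.85 times the control mean. The authors' deposited table lists LAMC1 at a log2 change of 0.86 (adjusted p = 0.0223). On the log2(FPKM + 1) scale its limma change was 0.87 ± 0.19 (SE, 2 libraries in each group), with an adjusted p of 0.180. Without siRNA-2 the LAMC1 change was 1.06 with an adjusted p of 0.0152, and without siRNA-1 it was 0.67 with an adjusted p of 0.116, with the lone siRNA library assumed to vary as the others do. LAMC3, a gamma chain, stayed under 1 FPKM, at 0.403 and 0.341 in control cells against 0.598 and 0.540 in knockdown cells.

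**Figure D2:**
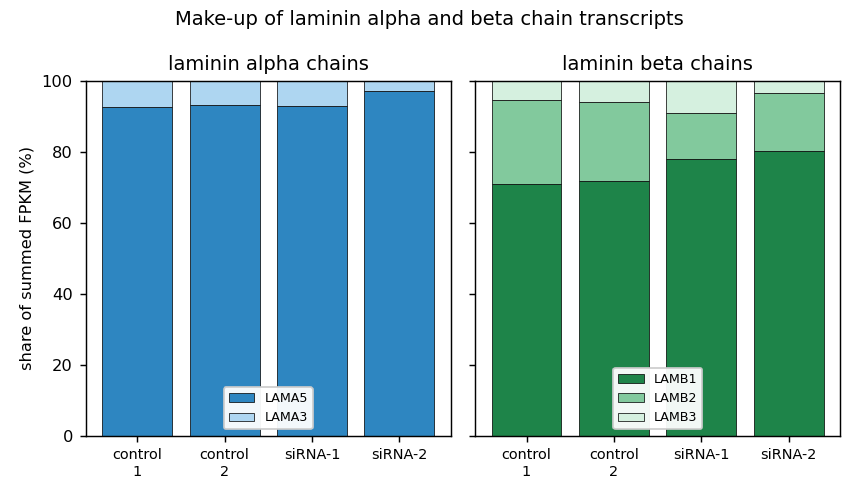
Share of summed FPKM (percent, vertical axis) taken by each laminin chain within the alpha and the beta chains, with 1 bar per library. LAMA5 takes at least 92.8% of alpha chain FPKM in every library, and LAMB1 goes from 71.1% and 71.8% of beta chain FPKM in the controls to 78.1% and 80.1% in the siRNA libraries. LAMA1, LAMA2, LAMA4 and LAMB4 are too low to be drawn.

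LAMA3 and LAMB3, chains of epithelial laminins that anchor cells at hemidesmosomes, did not lie higher in both siRNA libraries. LAMA3 measured 6.68 and 5.04 FPKM in control cells, 9.0 under siRNA-1 and 3.09 under siRNA-2. LAMB3 measured 7.0 and 6.88 FPKM in control cells, 19.2 under siRNA-1 and 4.98 under siRNA-2. In each case siRNA-1 was above both controls and siRNA-2 below both. Neither LAMA3 nor LAMB3 passed in limma (adjusted p of 0.955 and 0.789), and the authors' deposited table gives them adjusted p-values of 0.999 and 0.977.

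The chains of the widespread laminin built from LAMA5, LAMB1 and LAMC1 were all higher in both siRNA libraries than in both controls. LAMA5, the main alpha chain here, measured 86.2 and 70.4 FPKM in control cells, 118 under siRNA-1 and 108 under siRNA-2. LAMB1, the main beta chain, measured 93.2 and 82.8 FPKM in control cells, 165 under siRNA-1 and 119.7 under siRNA-2. Their limma changes were 0.53 ± 0.17 and 0.67 ± 0.21 (SE, 2 libraries in each group), with adjusted p-values of 0.314 and 0.289. Neither was called in the authors' deposited table (LAMA5 adjusted p = 0.339, LAMB1 adjusted p = 0.127), so of this trimer only LAMC1 passed there. LAMB2, an alternative beta chain, measured 30.9 and 25.6 FPKM in control cells against 27.1 and 24.7 in knockdown cells, which overlap. LAMB1 took 71.1% and 71.8% of beta chain FPKM in control cells, 78.1% under siRNA-1 and 80.1% under siRNA-2 (exact two-sided permutation p = 0.333, the smallest that 2 against 2 libraries can give).

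Of the laminin receptor subunits, ITGA3 (ENSG00000005884.13) was the most abundant alpha subunit in every library. ITGA3 pairs with ITGB1 and binds the laminins that contain LAMA3 or LAMA5. It measured 83.9 and 70.5 FPKM in control cells, 288 under siRNA-1 and 147 under siRNA-2. Both siRNA libraries lay above both controls, at 3.74 and 1.91 times the control mean. The authors' deposited table lists ITGA3 at a log2 change of 1.54 (standard error 0.34, adjusted p = 0.000489). In limma the change was 1.41 ± 0.33 (SE, 2 libraries in each group) at an adjusted p of 0.200.

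ITGA6, which forms the hemidesmosome receptor with ITGB4, measured 26.3 and 20.6 FPKM in control cells, 54.2 under siRNA-1 and 21.6 under siRNA-2. The siRNA-2 library lay between the controls, and only siRNA-1 stood above them. ITGB4 measured 32.1 and 31.4 FPKM in control cells, 37.1 under siRNA-1 and 28.6 under siRNA-2. Neither subunit passed in limma (adjusted p of 0.665 and 0.961) or in the authors' deposited table (0.453 and 0.999). ITGA7, mainly a muscle laminin receptor subunit, measured 1.45 and 1.17 FPKM in control cells against 1.17 and 0.577 in knockdown cells. The ratio of ITGA3 to ITGA6 was 3.19 and 3.42 in control cells, 5.33 under siRNA-1 and 6.80 under siRNA-2.

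RGD receptors bind the short arginine-glycine-aspartate motif of fibronectin, vitronectin and latent TGF-beta. ITGAV, which pairs with several beta subunits, measured 24.5 and 23.2 FPKM in control cells, 82.2 under siRNA-1 and 33.6 under siRNA-2. ITGA5, the alpha subunit of the main fibronectin receptor, measured 15.2 and 11.3 FPKM in control cells, 46.0 under siRNA-1 and 20.9 under siRNA-2. Both genes were higher in both siRNA libraries than in both controls, and both were higher with siRNA-1 than with siRNA-2. The authors' deposited table lists log2 changes of 1.29 for ITGAV (adjusted p = 0.0168) and 1.33 for ITGA5 (adjusted p = 0.0122). Their limma differences were 1.11 ± 0.41 and 1.18 ± 0.38 (SE, 2 libraries in each group), with adjusted p-values of 0.364 and 0.313.

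ITGB6, an epithelial subunit that pairs only with ITGAV and takes part in the activation of latent TGF-beta, was listed at 0 FPKM in control 1 and at 0.138 in control 2. Under siRNA-1 it reached 6.57 FPKM and under siRNA-2 0.406. Only the siRNA-1 library was above 1 FPKM. The authors' deposited table lists ITGB6 at a log2 change of 4.20 (standard error 0.88, adjusted p = 0.000171), on a mean normalized count of 59.5. The limma change was 1.61 ± 0.77 (SE, 2 libraries in each group) at an adjusted p of 0.486, and 0.40 without siRNA-1. In GENCODE 29, 20.6% of ITGB6 exon bases are shared with AC092153.1 on the same strand, so the assignment of its reads is uncertain.

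The beta subunits that were abundant in control cells had smaller differences. ITGB1, the partner of most alpha subunits, measured 592 and 574 FPKM in control cells, 711 under siRNA-1 and 607 under siRNA-2. ITGB5, another partner of ITGAV, measured 56.4 and 61.6 FPKM in control cells, 78.1 under siRNA-1 and 91.1 under siRNA-2. Both had non-overlapping groups, with limma changes of 0.17 ± 0.16 for ITGB1 and 0.51 ± 0.16 for ITGB5 (SE, 2 libraries in each group) and adjusted p-values of 0.726 and 0.312. The authors' deposited table calls neither (ITGB1 adjusted p = 0.984, ITGB5 adjusted p = 0.356). ITGB1 took between 83.1% and 86.8% of summed beta subunit FPKM over the 4 libraries.

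The alpha subunits summed to 174 and 152 FPKM in control cells, 499.6 under siRNA-1 and 248 under siRNA-2. ITGA3 took 48.3% and 46.2% of that sum in control cells, 57.7% under siRNA-1 and 59.4% under siRNA-2. The alpha subunits that can pair with ITGB1 summed to 0.267 and 0.232 of the ITGB1 level in control cells, 0.675 under siRNA-1 and 0.384 under siRNA-2. These are transcript levels, and no protein or surface level was measured.

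Of the collagen receptor subunits only ITGA2 reached the tested level. ITGA2 measured 4.95 and 4.87 FPKM in control cells against 6.52 and 6.80 in knockdown cells. Its groups did not overlap, but the limma change of 0.37 ± 0.19 had an adjusted p of 0.512. ITGA1 measured 1.18 and 1.17 FPKM in control cells against 0.752 and 0.790 in knockdown cells, the reverse order. The authors' deposited table calls neither (ITGA2 adjusted p = 0.635, ITGA1 adjusted p = 0.634).

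Among subunits best known from leukocytes, ITGAX, the CD11c subunit, was listed at 0 in control cells and reached 2.52 FPKM under siRNA-1 and 0.241 under siRNA-2. The authors' deposited table lists ITGAX at a log2 change of 3.50 (standard error 1.06, adjusted p = 0.0276), on a mean normalized count of 19.0. ITGAX averaged under 1 FPKM and was not tested in limma. Its only partner, ITGB2, measured 0.442 and 0.667 FPKM in control cells against 0.372 and 0.944 in knockdown cells. The leukocyte-defining PTPRC, CD3E and LYZ were listed at 0 in all 4 libraries, and 2 of the 8 listed leukocyte markers reached 1 FPKM. Summed over that list, the level was 8.73 and 10.7 FPKM in control cells, 19.5 under siRNA-1 and 6.26 under siRNA-2. CD68 made up 7.09 and 9.72 FPKM of those sums in control cells, 16.8 under siRNA-1 and 4.69 under siRNA-2, and ITGAM, itself a member, is on the list. For CD68 the mean normalized count in the authors' deposited table is only 0.754, so its FPKM and its counts disagree and the sum it carries is uncertain. ITGAX neighbours ITGAM and ITGAD in RefSeq. ITGAM measured 1.07 and 0.570 FPKM in control cells, 2.25 under siRNA-1 and 0.728 under siRNA-2, and ITGAD was at 0.124 FPKM in control 1 and listed at 0 elsewhere. ITGAE, which pairs with ITGB7 to bind E-cadherin, measured 13.8 and 18.2 FPKM in control cells against 13.6 and 13.5 in knockdown cells. In GENCODE 29, HASPIN covers 6.41% of ITGAE exon bases on the opposite strand, and whether counting used strand is not given in the sources used here. ITGAE has a mean normalized count of 115 in the authors' deposited table beside a mean of 14.8 FPKM.

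The remaining members were low. ITGB7 reached 1.62 FPKM with siRNA-2, ITGA10 reached 1.06 with siRNA-2 and ITGA2B reached 1.01 with siRNA-1, each under 0.5 FPKM in both controls. ITGA4 was listed at 0 in control cells and reached 0.456 FPKM under siRNA-1 and 0.584 under siRNA-2. The first ITGB3 row peaked at 0.790 FPKM with siRNA-1, ITGAL at 0.401 in control 1 and ITGB8 at 0.387 in control 2 and under siRNA-1. In GENCODE 29, which may not be the annotation used for the values, 51.6% of ITGB3 exon bases are shared with AC068234.1 on the same strand. The ITGB3 values are therefore uncertain. For ITGB7, 42.1% are shared with ZNF740 on the opposite strand, which makes its values uncertain only if counting ignored strand. ITGA11, ITGA9, LAMA1, LAMA2 and LAMB4 never passed 0.0887 FPKM. ITGA8, LAMA4 and the second ITGB3 row were listed at 0 in all 4 libraries.

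**Figure D3:**
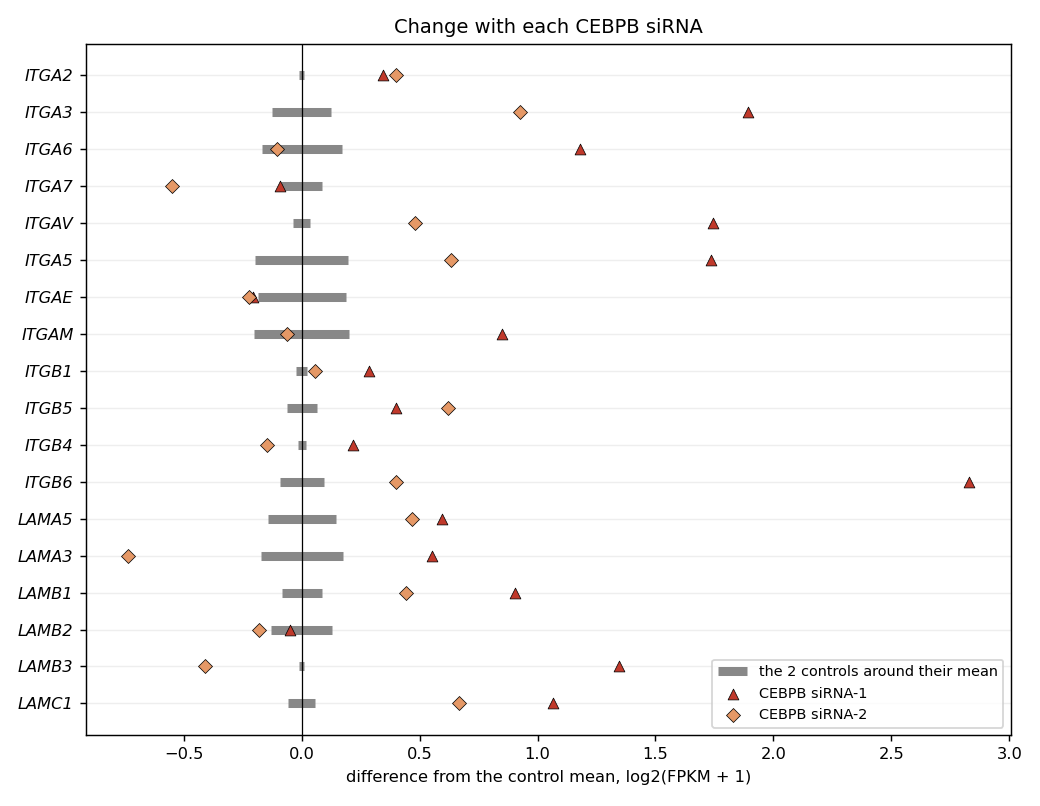
Difference of each siRNA library from the control mean on the log2(FPKM + 1) scale (horizontal axis) for the 18 tested members, with siRNA-1 as triangles, siRNA-2 as diamonds and the span of the 2 controls as a grey bar. ITGA3 lies at 1.89 and 0.93, and LAMB3 and LAMA3 have siRNA-1 to the right and siRNA-2 to the left of the controls.

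Over the 18 tested members, groups did not overlap for 10 with the siRNA libraries higher (55.6%) and for 2 with them lower (11.1%), where 23.5% and 21.0% of all tested genes did. The 10 higher were ITGA2, ITGA3, ITGA5, ITGAV, ITGB1, ITGB5, ITGB6, LAMA5, LAMB1 and LAMC1, of which ITGB6 passed the filter only through siRNA-1. The 2 lower, ITGA7 and ITGAE, were separated by small gaps (1.173 FPKM in control 2 against 1.167 under siRNA-1 for ITGA7). Both overlapped once the libraries were put on a median-of-ratios scale. ITGB1, among the higher, also had a small gap (592 FPKM in control 1 against 607 under siRNA-2). The count of 10 higher was the same on that scale. The median log2 change over the 18 was 0.49, beside 0.0010 over all tested genes. For siRNA-1 alone it was 0.72 and for siRNA-2 alone 0.23, beside -0.034 and 0.040 over all genes, and control 1 was above control 2 by a median of 0.14 over the members and 0.0487 over all genes.

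Each siRNA was also set against the controls alone. With siRNA-1, 7 of the 18 tested members lay over 1 above the control mean on the log2(FPKM + 1) scale, where 5.46% of all genes did. They were ITGA3, ITGA5, ITGA6, ITGAV, ITGB6, LAMB3 and LAMC1. ITGB6 passed the filter only through siRNA-1, so its place in this and the following counts partly reflects the filter. The same holds for ITGAM among the unadjusted p-values of the siRNA contrast below. With siRNA-2 no member lay over 1 above the control mean, where 2.37% of all genes did. No member lay over 1 below the control mean with either siRNA, where 4.82% of all genes did with siRNA-1 and 1.69% with siRNA-2. In a fit with 3 groups, where the spread comes from the controls alone, none of the 18 differed between the siRNAs at an adjusted p of 0.05 (0.114% of all genes were called higher with siRNA-1 and 0.327% lower). Before adjustment 10 had a p below 0.05, each higher with siRNA-1, where 22.4% of all genes had such a p. The differences with the smallest adjusted p were 1.27 ± 0.16 for ITGAV, 2.43 ± 0.29 for ITGB6 and 1.75 ± 0.21 for LAMB3 (SE), each with an adjusted limma p of 0.0542. For CEBPB itself the same difference was 0.22 ± 0.16 (SE). On a median-of-ratios scale the differences were 1.37 for ITGA6, 1.35 for ITGAV, 2.47 for ITGB6 and 1.83 for LAMB3. Which members passed that contrast depended on the scaling, and so did the calls over all genes.

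In the same 3-group fit, the mean of both siRNAs against the controls was called higher for 6 of the 18 members, where 3.82% of all genes were. The 6 were ITGA3, ITGA5, ITGAV, ITGB6, LAMB1 and LAMC1, with adjusted limma p-values from 0.013 for ITGA3 to 0.0387 for LAMB1. Without siRNA-2, 8 members were called higher, where 6.18% of all genes were, namely these 6, ITGA6 and LAMB3. Without siRNA-1 limma called 0 members (8 at an unadjusted p below 0.05, against 14.8% of all genes), where 0.199% of all genes were called higher. Leaving out control 1 or control 2 also left 0 members called in limma, with 2 and 1 at an unadjusted p below 0.05, against 5.23% and 4.87% of all genes.

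**Figure D4:**
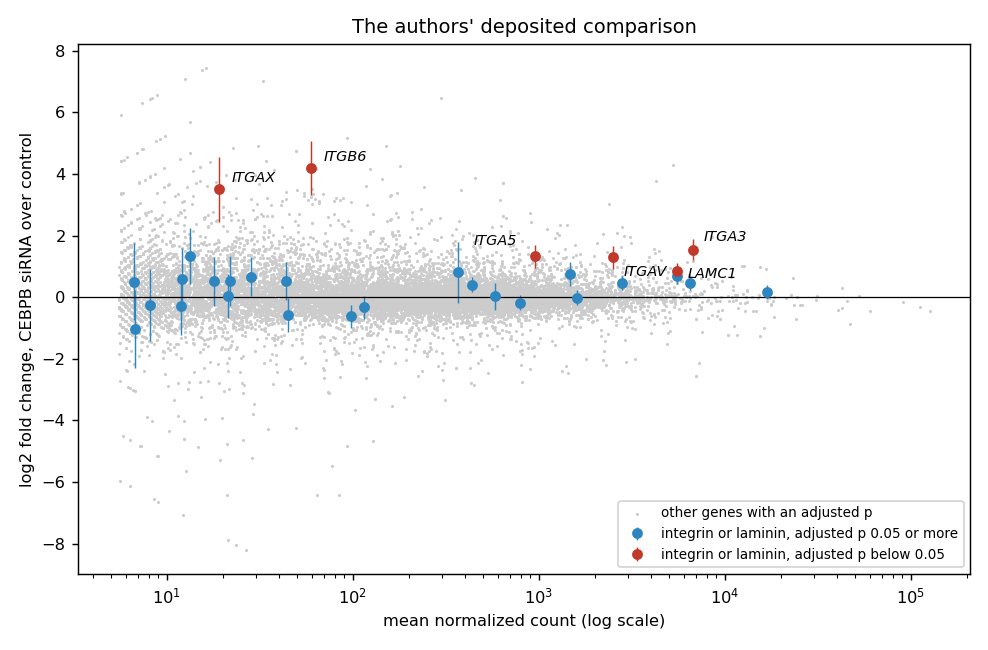
The authors' deposited log2 fold change, knockdown against control (vertical axis, bars are the authors' standard errors) against the mean normalized count (horizontal log axis), with genes outside the families in grey. The 6 called members in red lie above 0, with ITGA3 at 1.54, and ITGAX and ITGB6 have low mean counts.

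Partners of these genes were read from 4 lists. Among basement membrane and hemidesmosome partners, 5 of the 20 genes with an adjusted p in the authors' deposited table were called higher and 1 lower, where 2.71% and 1.42% of all genes were. HSPG2, which encodes perlecan, measured 12.3 and 11.1 FPKM in control cells, 64.5 under siRNA-1 and 28.1 under siRNA-2, and the authors' deposited table lists it at a log2 change of 1.95. The basement membrane collagen chains COL4A2 (1.57) and COL18A1 (1.57), the hemidesmosome linker DST (1.0) and agrin, AGRN (0.99), are also higher in the authors' deposited table. Nidogen 2, NID2, which bridges laminin and collagen networks, measured 3.49 and 2.81 FPKM in control cells against 0.941 and 1.44 in knockdown cells, and is lower in the authors' deposited table (-1.47). None of the 15 tested passed in limma for knockdown over control (7 at an unadjusted p below 0.05, against 12.2% of all genes), and their median log2 change was 0.62. In the limma contrast of siRNA-1 against siRNA-2, with 1 library each, netrin 4, NTN4, was higher with siRNA-1 (difference 2.07). Its call in that contrast was lost with a pseudocount of 0.1. NTN4 measured 18.9 and 15.8 FPKM in control cells, 71.8 under siRNA-1 and 16.3 under siRNA-2.

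Among other integrin ligands, 8 of 26 were called higher and 2 lower in the authors' deposited table (2.71% and 1.42% of all genes). Fibronectin, FN1, measured 49.9 and 63.5 FPKM in control cells against 27.9 and 33.9 in knockdown cells. Vitronectin, VTN, measured 3.85 and 6.86 FPKM in control cells against 0.663 and 0.586 in knockdown cells. Their log2 changes in the authors' deposited table were -0.96 for FN1 and -2.81 for VTN, while ITGA5 and ITGAV are higher there. ICAM1 (2.20), tenascin C, TNC (2.16), COL1A1 (1.88) and L1CAM (1.84) head the higher ligands in the authors' deposited table, and COL1A1 is also on the fibroblast marker list. None of the 23 tested ligands passed in limma for knockdown over control (13 at an unadjusted p below 0.05, against 12.2% of all genes). Their median log2 change was 0.58. TNC and COL1A1, under 1 FPKM in both controls, entered that test only through the siRNA libraries, and VTN only through the controls. Their places among the 13 partly reflect the filter.

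Of the adhesion adaptors, 3 of 34 were called higher and 2 lower in the authors' deposited table, beside 2.71% and 1.42% of all genes. PTK2, the focal adhesion kinase, measured 43.0 and 35.3 FPKM in control cells, 109 under siRNA-1 and 57.6 under siRNA-2. PXN, the focal adhesion scaffold paxillin, measured 34.7 and 31.8 FPKM in control cells against 60.1 and 59.1 in knockdown cells. CSRP1 measured 65.9 and 53.9 FPKM in control cells against 115 and 118 in knockdown cells. PTK2B, a kinase related to PTK2, went the other way, with 6.54 and 7.46 FPKM in control cells against 3.0 and 2.23 in knockdown cells, and KANK2 is also lower in the authors' deposited table (-0.81). None of the 30 tested adaptors passed in limma for knockdown over control (8 at an unadjusted p below 0.05, against 12.2% of all genes), and their median log2 change was 0.24. Among 12 laminin processing and surface partners, 3 were called higher and 0 lower in the authors' deposited table, beside 2.71% and 1.42% of all genes. They were CD82 (5.16), CAV1 (1.75) and SDC4 (0.96) in the authors' deposited table. CD82, a tetraspanin, measured 0.410 and 0.188 FPKM in control cells, 14.4 under siRNA-1 and 3.63 under siRNA-2. None of the 10 tested passed in limma for knockdown over control (3 at an unadjusted p below 0.05, against 12.2% of all genes). Their median log2 change was 0.47. CD82 entered that test only through the siRNA libraries, so its place among the 3 partly reflects the filter. The proteoglycan syndecan 1, SDC1, was called lower with siRNA-1 than with siRNA-2 in limma (difference -2.88, adjusted p = 0.0404). SDC1 measured 58.5 and 59.7 FPKM in control cells, 8.64 under siRNA-1 and 70.1 under siRNA-2.

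The 4 libraries summed to between 494066 and 528606 FPKM, and each had between 13752 and 14325 genes at 1 FPKM or more. Of 9 lung epithelial markers, 7 reached 1 FPKM in a library, while SFTPB and NKX2-1 were listed at 0 throughout. Their sum was 4270.2 and 5836 FPKM in control cells, 3025 under siRNA-1 and 4003 under siRNA-2, nearly all of it from KRT8, KRT18 and KRT7. KRT18 was lower in the authors' deposited table (-1.21, adjusted p = 0.0317). The list did not move one way, since KRT8, KRT18 and EPCAM were lower in both siRNA libraries than in both controls, while KRT7 and KRT19 were higher, at 1.63 and 2.23 times the control mean. Fibroblast and smooth muscle markers summed to 5.78 and 4.25 FPKM in control cells, 14.2 under siRNA-1 and 11.9 under siRNA-2. Of these, 2 of 9 were above 1 FPKM, ACTA2 and COL1A1, which made up nearly all of the sum, and COL1A2 was listed at 0. PDGFRA, MYH11 and COL3A1, all under 1 FPKM, were lower in both siRNA libraries than in both controls. Endothelial and platelet markers stayed at or below a sum of 1.23 FPKM and basal keratinocyte markers at or below 1.19. The part of these marker differences in the integrin and laminin results was not tested, and in bulk RNA fewer cells of a type and less RNA per cell cannot be told apart.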

How the data were processed

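Total RNA of 4 A549 libraries was read as 76-base single-end reads from strand-specific libraries, per the labels' protocols. The submitters' processing notes name the tools DESeq2 1.26.0, HTSeq 0.13.5, STAR 2.7.0d and StringTie 2.1.4 and the build hg19 without saying what each did. The authors deposited 1 value per gene and library, taken as FPKM because the headers are those of StringTie and the column sums differ between libraries. Alongside stand DESeq2 output columns, per the file headers. Their signal is the authors' mean normalized count, with a sum of 8341083 over genes, the one trace of depth here. The authors' log2 fold change with its error, a Wald score and a raw and adjusted p-value were deposited too. These were copied, not recomputed. Samples were grouped by title. A member row and a marker gene are not reported here.

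log2(FPKM + 1) was fitted in R 4.3.3 by limma 3.58.1, letting the prior variance follow the mean level, over the 14068 genes averaging at least 1 FPKM, 2 control against 2 siRNA libraries and no block. p-values were adjusted over all genes by Benjamini-Hochberg, with a threshold of 0.05. Residual degrees of freedom were 2 and prior ones 3.61. This scale understates changes of low genes. siRNA-1 was set against siRNA-2 in a 3-group fit, whose residual degree of freedom comes from the controls. The limma script was tested on simulated data. Every member averaging 1 FPKM or more was named, and the others by their highest library. From the partner lists, genes past 0.05 in either table were named, up to 4 per direction by the authors' log2 change. AGRN, the fifth of its list, was added after its values were seen. Members, lists and tests were chosen with earlier results of these data known. Alternatives were another pseudocount, other filters and scalings, 3 groups, a replicate block and leaving out each library.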

Additional observations from a re-analysis of the deposited data

Results flagged for a closer look

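For 3 of the 18 tested members, siRNA-1 lay above both controls and siRNA-2 below both. Of all tested genes 7.18% did so, and 13.1% had the reverse pattern, which no tested member had. Among the 20 members averaging under 1 FPKM, ITGA2B had the first pattern and ITGA10 and ITGB2 the reverse. The difference of siRNA-1 minus siRNA-2 on the log2(FPKM + 1) scale was 1.75 for LAMB3, 1.29 for LAMA3 and 0.37 for ITGB4. With 1 library per siRNA, the difference can be tested only against the spread of the controls, where adjusted limma p-values were 0.0542, 0.0931 and 0.256.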

How the results depend on the processing

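Over 195 refits of single members, 174 kept direction and side of the threshold, 14 newly passed it, 0 lost a call and 7 changed direction, in 6 genes. All 7 came from leaving out 1 library. The ranges were -0.10 to 1.18 for ITGA6, -0.062 to 0.85 for ITGAM and -0.15 to 0.22 for ITGB4. They were -0.74 to 0.55 for LAMA3, -0.25 to 0.013 for LAMB2 and -0.41 to 1.35 for LAMB3. A call could not be lost, because no member was called in the main fit. Members called higher ranged from 0 (without siRNA-1 or either control, where the controls' removal left 736 and 685 genes at an unadjusted p below 0.05) to 8 (without siRNA-2) when 1 library was left out, and were 6 with 3 groups. Their median change ranged from 0.23 to 0.72 and the count of members lower without overlap from 2 to 6, or 0 and 1 with median-of-ratios and upper-quartile scaling. These overlap and median alternatives were added after seeing the data.

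Over all genes, calls when 1 library was left out ranged from 0 to 870 higher and from 0 to 894 lower. They were 0 and 0 in limma with no filter (2438 at an unadjusted p below 0.05), and 538 and 433 with 3 groups. Between the siRNAs, calls were 0 higher and 1 lower with a pseudocount of 0.1, 909 and 1006 with no filter, and 191 and 173 with median-of-ratios scaling, where 4 members passed (2 with no filter). The cause of these shifts was not tested. The titles number both groups 1 and 2, but nothing says that equal numbers share a culture. With that number as a replicate block, 11 genes were called higher and 14 lower, and 0 members. In that limma fit 7 members had an unadjusted p below 0.05, against 12.7% of all genes. Median-of-ratios scaling moved the median of all genes by -0.0044. Counts per library were not used here, so depth limits cannot be set gene by gene.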
